A study of Mus musculus with 24 samples.

Results

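Wdfy1, Hsd17b11, Igj, 1700112E06Rik, Gm15446, Pydc3, Pydc4 and Apol9a are 8 of the 23955 gene symbols counted in mouse kidney here. They were chosen by symbol because their counts stood apart between Pld4 knockout and wild type kidneys already before injury, or by much the same amount on the later days, in place of following the injury. The counts of KO against WT therefore chose them, and every such difference below is a description with no test. RNA was sequenced from kidney in 24 libraries, 4 in each of 6 groups. The groups were PLD4-/- (KO) and PLD4+/+ (WT) kidneys on day 0 (control, without obstruction), on day 5 and on day 10 of unilateral ureteral obstruction (UUO), in which a tied ureter injures and scars the kidney. The labels give the genotype, the treatment and the day. The strain, the allele, the deleted part of the gene, age, sex and any breeding of controls as littermates are not given there, so the loss of Pld4 cannot be told apart from other inherited differences between the KO and WT animals. They also do not say that each library came from its own animal, so the p-values measure the spread between these libraries, which may be technical.

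Pld4 encodes a membrane-bound exonuclease of the endolysosome that trims single-stranded nucleic acids and so limits the nucleic acid-sensing Toll-like receptors there. Signals from those receptors induce type I interferon, which switches on a broad set of antiviral genes. Among the genes described here, Pydc3, Pydc4 and Apol9a belong to families with interferon-induced members. Wdfy1 encodes an early endosome protein with a FYVE domain and WD repeats. Hsd17b11 encodes a short-chain dehydrogenase found on lipid droplets. Igj (now Jchain) encodes the joining chain that links IgM and IgA into polymers in plasma cells. 1700112E06Rik (now Lrmda) corresponds to human LRMDA, a melanocyte differentiation gene mutated in a form of albinism. Gm15446 is listed as a long noncoding RNA gene by RefSeq and as protein coding by GENCODE, and no role is annotated for it.

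Pydc3, Pydc4 and Apol9a are the genes of the set whose promoter holds the core of an interferon-stimulated response element, spelled as GAAA, any 2 bases and GAAA and searched on both strands, so their sequences are shown. The 250 bases before each gene's start are given from RefSeq (build GRCm38.p6), read along the gene, with the motif in capitals. Pydc3 (RefSeq Ifi208, plus strand) is read at chr1:173673415-173673664, Pydc4 (RefSeq Ifi213, minus strand) at chr1:173599273-173599522, and Apol9a (minus strand, the first of its listed starts) at chr15:77411081-77411330.
Pydc3: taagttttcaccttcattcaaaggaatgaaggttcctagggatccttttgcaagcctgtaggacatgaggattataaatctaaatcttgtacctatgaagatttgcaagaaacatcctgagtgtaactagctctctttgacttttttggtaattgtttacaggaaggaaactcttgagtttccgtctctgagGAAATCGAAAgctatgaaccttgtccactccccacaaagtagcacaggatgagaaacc
Pydc4: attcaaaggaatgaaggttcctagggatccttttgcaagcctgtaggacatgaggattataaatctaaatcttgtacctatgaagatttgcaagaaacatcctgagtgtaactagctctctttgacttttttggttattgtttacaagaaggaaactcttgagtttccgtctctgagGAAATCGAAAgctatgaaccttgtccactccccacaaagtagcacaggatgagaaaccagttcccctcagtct
Apol9a: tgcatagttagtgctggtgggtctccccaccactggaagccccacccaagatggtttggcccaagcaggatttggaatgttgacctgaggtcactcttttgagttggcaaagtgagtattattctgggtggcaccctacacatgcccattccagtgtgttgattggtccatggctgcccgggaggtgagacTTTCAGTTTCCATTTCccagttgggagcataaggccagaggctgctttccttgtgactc
In Pydc3 and Pydc4 the match is the same 10 letters, beginning 58 and 73 bases before the start. In Apol9a, 2 overlapping matches lie on the other strand (TTTC, any 2 bases and TTTC) and share their middle TTTC, beginning 59 and 53 bases before the start. The windows searched ran from 250 bases before to 50 after a start, and over their 300 bases those of Pydc3 and Pydc4 aligned at 282 of 285 positions (98.9%). Of the 8 genes, 7 had a window, Wdfy1 being the exception, and the windows of the other 4 genes held no match. The same motif was found in 3.44% of all 32851 windows. A match is a string of letters and was not tested as a binding site.

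Total counts per library ran from 9800888 to 22542866. Values below are in CPM, the count scaled to the library's depth and composition, and 15080 genes passed the filter on low counts, all 8 among them. Pld4, the targeted gene, was present in the libraries labelled KO. It averaged 9.48 CPM in KO and 6.69 CPM in WT on day 0, where the groups overlapped, 20.3 and 48.3 CPM on day 5, and 37.3 and 81.5 CPM on day 10, with all 4 KO libraries below all 4 WT libraries on days 5 and 10. The day 0 counts of Pld4 therefore gave no check of the labels, and KO and WT stand throughout for libraries so labelled. The library labelled KO day 0 replicate 4 had 879 CPM of Xist and 0.390, 0.234, 0 and 0.156 CPM of the Y-linked Ddx3y, Eif2s3y, Kdm5d and Uty. The other 23 libraries had at most 0.692 CPM of Xist and at least 58.0 CPM of Ddx3y. By these genes that library reads as female and the others as male, so KO day 0 mixes the sexes. Values with and without that library are given below, and the part of sex in them was not tested. WT day 10 replicates 2 and 3 stood apart by neutrophil genes, whose summed level was 4121 and 6718 CPM, against 27.4 and 26.6 CPM in the other WT day 10 libraries and 11.7 to 22.4 CPM in KO day 10. In bulk RNA, fewer cells of a type and less RNA per cell cannot be told apart.

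On day 0, 6 of the 8 genes had all 4 KO libraries above all 4 WT libraries, where 10.5% of all genes tested did, and 2 (Wdfy1 and Hsd17b11) had them all below, where 9.1% did. On day 5 the counts were 5 above (2.73% of all genes) and 1 below (1.86%), with Pydc4 and Hsd17b11 overlapping. On day 10 they were 6 above (1.49%) and 1 below (1.87%), with Hsd17b11 overlapping. Of all genes tested, 17 (0.113%) were above and 2 (0.0133%) below on each of the 3 days. When all 12 KO libraries were set against all 12 WT libraries, whatever the day, 7 genes were higher without overlap (0.0464%) and 1 lower (0.00663%), and 5 of these 8 belong to the set: Wdfy1, Pydc3, 1700112E06Rik, Gm15446 and Apol9a. Igj overlapped by a little, since its lowest KO library was at 16.1 CPM and its highest WT library at 16.8 CPM. These counts are what the choice itself used, and nothing is read from them. Hsd17b11 differed on day 0 alone, and so does not carry an offset through obstruction.

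**Figure D1:**
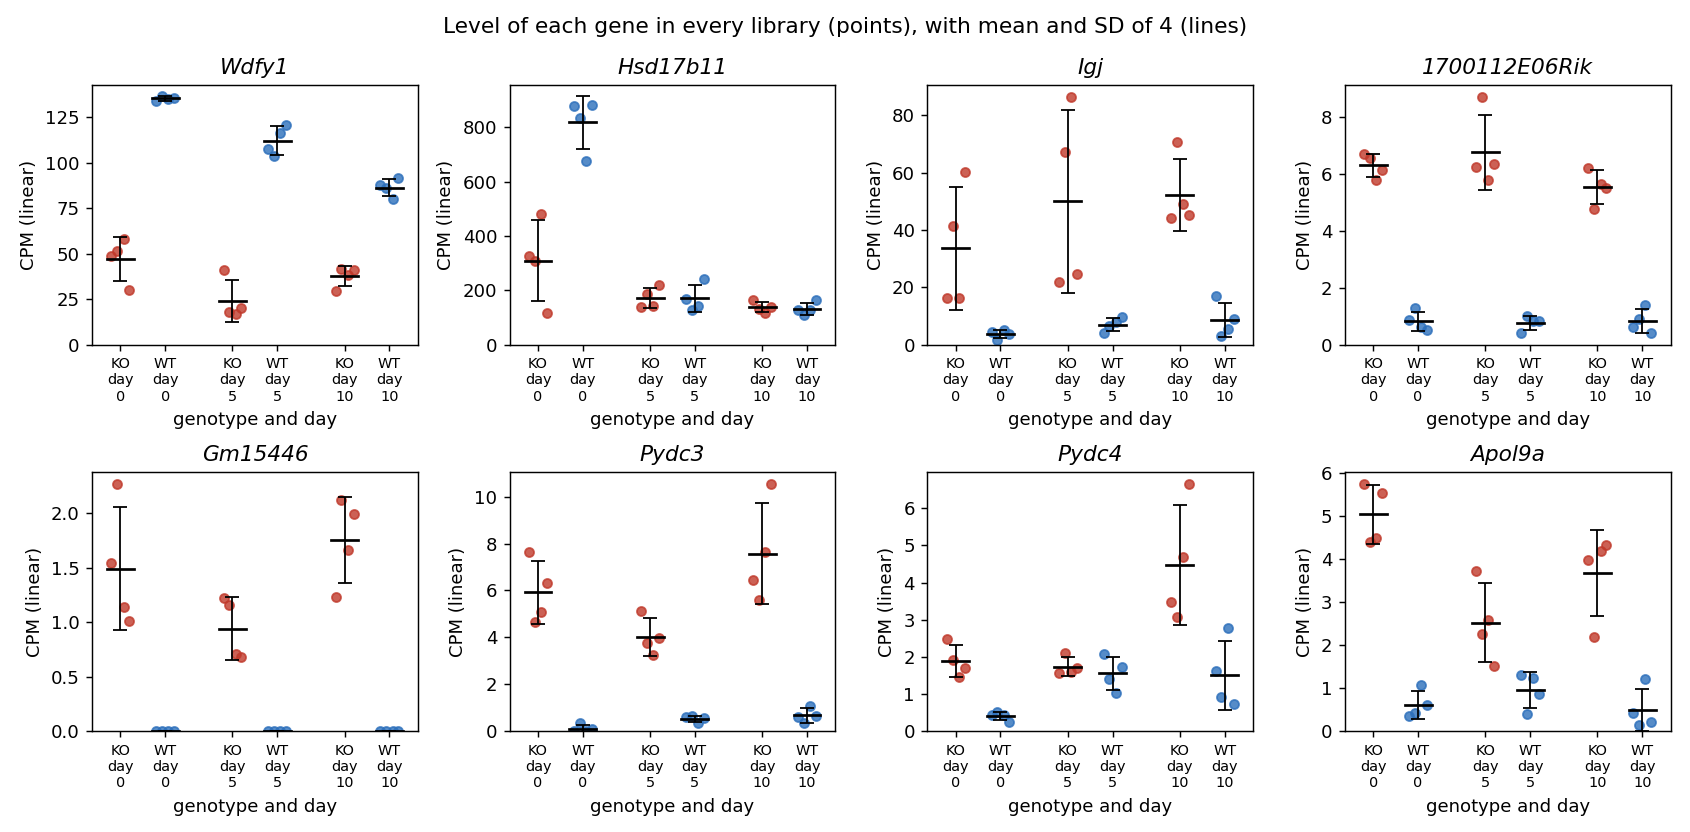
CPM (linear axis) of each of the 8 genes in every library, with KO (red) left of WT (blue) on day 0, day 5 and day 10; points are libraries, and lines are the mean and SD of 4. Gm15446 is at 0 in all 12 WT libraries, and Hsd17b11 has its WT day 0 libraries at 677 to 884 CPM, above every other group.

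Wdfy1 was lower in KO kidneys on every day, and WT levels did not reach down to it. On day 0 the KO libraries had 48.6, 51.4, 58.0 and 29.9 CPM, against 134, 137, 135 and 136 CPM in WT. On day 5 the KO libraries had 40.8, 17.9, 16.9 and 20.2 CPM, against 107, 104, 116 and 121 CPM in WT. On day 10 the KO libraries had 29.4, 41.5, 38.1 and 41.0 CPM, against 87.8, 86.0, 80.0 and 91.4 CPM in WT. The genotypes did not overlap on any day, and the WT day 0 libraries lay close together while the KO libraries spread more widely. The difference of KO to WT was -1.53 ± 0.22 on day 0, -2.22 ± 0.22 on day 5 and -1.20 ± 0.22 on day 10 (log2 fold change ± SE), that is 2.88-fold, 4.67-fold and 2.30-fold lower. KO day 5 replicate 1 was the highest of its group, and without it the day 5 difference was -2.63. The library labelled KO day 0 replicate 4 was the lowest of its group, and without it the day 0 difference was -1.36. In order of level, WT day 0, WT day 5, WT day 10 and the KO groups came in turn without overlap, and the 3 KO groups, day 0, day 10 and day 5 from high to low, each overlapped the next.

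Wdfy1 has been linked to the recruitment of the adaptor TRIF to TLR3 and TLR4, so the other WDFY genes and the TRIF branch were read beside it. Of 15 such genes tested, 1 was higher in KO on day 0 (3.65% of all genes were), and the list's median difference was 0.25, where all genes had 0.01. That gene was Wdfy4, which serves antigen cross-presentation in dendritic cells, at 9.44 CPM in KO and 3.91 CPM in WT (log2 1.28 ± 0.27, adjusted p = 0.00836). Wdfy3 had 228 CPM in KO and 193 CPM in WT, and Ticam1, which encodes TRIF, 32.4 and 32.5 CPM on day 0. On day 5, 0 of 15 passed (edgeR's quasi-likelihood test), where 0.0663% of all genes were higher and 0.0796% lower, with 1 lower at an unadjusted p under 0.05 and 0 with DESeq2. On day 10, Cd14 (-2.57 ± 0.57, adjusted p = 0.0222) and Ikbke (-2.01 ± 0.49, adjusted p = 0.0371) were lower in KO, where 1.27% of all genes were. Neither call was made without WT day 10 replicates 2 and 3, or with the replicate number as a block.

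Hsd17b11 was lower in KO kidneys before obstruction and level with WT afterwards. On day 0 the KO libraries had 328, 307, 480.2 and 117 CPM, against 879.6, 834, 677 and 884 CPM in WT, without overlap. On day 5 they had 139, 186, 142 and 218 CPM, against 168, 129, 142 and 241 CPM in WT. On day 10 they had 162, 133, 117 and 138 CPM, against 127, 108, 126 and 163 CPM in WT. The groups overlapped on both obstruction days, and all 5 groups below WT day 0 overlapped in turn. The difference was -1.41 ± 0.29 on day 0 (2.66-fold lower), 0.01 ± 0.28 on day 5 and 0.07 ± 0.28 on day 10. The library labelled KO day 0 replicate 4 was the lowest of its group, and the day 0 difference without it was -1.14. Proximal tubule genes were read beside it. The summed level of 15 of them was 46124 to 73759 CPM in KO and 82417 to 96513 CPM in WT on day 0, with no gene of the list at 0, but Kap, the gene of the kidney androgen-regulated protein, made up most of it in all of these libraries except KO day 0 replicate 4. Kap had 48024, 44689, 40631 and 14008 CPM in KO and 64527, 56363, 55703 and 57123 CPM in WT. Without Kap, left out after its values were seen, the sum was 25735, 20667, 28486 and 32116 CPM in KO and 31986, 27841, 26714 and 30462 CPM in WT. The genotypes then overlapped, and the library labelled KO day 0 replicate 4 was the highest of the 8. The list's median difference on day 0 was -0.02, where all genes had 0.01. None of the 15 genes passed singly on day 0 in edgeR's quasi-likelihood test, where 3.65% of all genes were higher and 0.531% lower. At an unadjusted p under 0.05 there were 0, and with DESeq2 0. The part of these cells in the Hsd17b11 difference was not tested.

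The rest of the hydroxysteroid dehydrogenase family was read beside it. None of 7 other family genes passed between genotypes on any day (edgeR's quasi-likelihood test). At an unadjusted p under 0.05 there were 0, 0 and 1 on days 0, 5 and 10, and with DESeq2 there were 0 on each. Of all genes, 3.65% were higher and 0.531% lower on day 0, 0.0663% and 0.0796% on day 5, and 0.139% and 1.27% on day 10. With shares so low on days 5 and 10, 0 calls in a short list are read as nothing. On day 5, 1 of 7 was lower than on day 0 in KO, where 17% of all genes were, and 5 of 7 in WT, where 25.6% were. On day 10, 6 of 7 were lower than on day 0 in KO, where 26% of all genes were, and 6 of 7 in WT, where 30.3% were. On day 10 in WT, Hsd17b2, which oxidises oestradiol and testosterone, fell by 2.28 ± 0.44 (adjusted p = 0.000139) and Hsd17b4, an enzyme of peroxisomal fatty acid oxidation, by 1.33 ± 0.21 (adjusted p = 1.22e-05). Of 18 other lipid droplet genes, 0 passed on day 0 and 0 on day 5 (0 and 0 higher, 3 and 1 lower at an unadjusted p under 0.05, and 0 and 1 lower with DESeq2). On day 10, G0s2, Hilpda and Dgat1 were lower in KO, at 23.5, 5.77 and 31.9 CPM, against 117, 46.2 and 124 CPM in WT, and none was without WT day 10 replicates 2 and 3 or with the block.

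Igj was higher in KO kidneys on every day and was the most variable of the set within groups. On day 0 the KO libraries had 16.3, 41.4, 16.1 and 60.3 CPM, against 4.50, 1.70, 4.93 and 3.61 CPM in WT. On day 5 the KO libraries had 21.7, 67.0, 86.3 and 24.6 CPM, against 3.86, 6.61, 7.88 and 9.50 CPM in WT. On day 10 the KO libraries had 44.0, 70.7, 49.0 and 45.3 CPM, against 16.8, 3.15, 5.50 and 8.89 CPM in WT. The genotypes did not overlap within any day. The difference was 3.18 ± 0.57 on day 0, 2.84 ± 0.54 on day 5 and 2.60 ± 0.53 on day 10, that is 9.09-fold, 7.14-fold and 6.06-fold higher. Its SD within groups was 0.79 on the log2 scale, and 93.9% of genes had a smaller one. Without the library labelled KO day 0 replicate 4, which had the highest day 0 level, the day 0 difference was 2.73, and without WT day 10 replicates 2 and 3 the day 10 difference was 2.01.

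Other B cell and plasma cell genes moved with Igj on day 0 in part. Of 19 tested, 5 were higher in KO on day 0, where 3.65% of all genes were: Pou2f2, Prdm1, Pou2af1, Cd79a and Irf4. Pou2f2, a lymphocyte transcription factor, had 3.04 CPM in KO and 0.454 CPM in WT (2.73 ± 0.53, adjusted p = 0.00394). Prdm1, the plasma cell regulator Blimp-1, had 6.05 CPM in KO and 1.90 CPM in WT (1.67 ± 0.37, adjusted p = 0.0105). Without the library labelled KO day 0 replicate 4, 2 of the 19 passed. On days 5 and 10, 0 of 19 passed (edgeR's quasi-likelihood test). At an unadjusted p under 0.05, 3 were higher on day 5 and 3 lower on day 10, and 1 and 0 with DESeq2. Of all genes, 0.0663% were higher and 0.0796% lower on day 5, and 0.139% and 1.27% on day 10. With shares so low, 0 calls in a short list are read as nothing. Mzb1, a chaperone of plasma cells, had 2.40 CPM in KO and 1.54 CPM in WT on day 0. Tnfrsf17, a plasma cell receptor, was at 0 counts in all 4 WT kidneys of day 0 and had at most 5 counts in any library. The summed level of all 21 counted genes of the list, tested or not, was 754 to 1462 CPM in KO and 391 to 497 CPM in WT on day 0, 547 to 898 and 295 to 449 CPM on day 5, and 492 to 854 and 328 to 1055 CPM on day 10. Without Pigr, Xbp1 and Sdc1, which epithelium also expresses, it was 21.1 to 31.1 CPM in KO and 9.88 to 12 CPM in WT on day 0, 31.0 to 41.9 and 25.8 to 30.9 CPM on day 5, and 42.9 to 53.1 and 27.8 to 87.9 CPM on day 10. The part of these cells in the Igj difference was not tested. Pigr, the epithelial receptor that carries J chain-linked antibodies, differed by 1.62 on day 0 (adjusted p = 0.0828) and 2.35 on day 5 (adjusted p = 0.085), short of the threshold.

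1700112E06Rik had the offset that varied least between days among the 7 genes with a fold change, with KO libraries higher on every day by a near equal amount. The KO day 0 libraries had 6.70, 6.57, 5.79 and 6.16 CPM, against 0.865, 1.28, 0.628 and 0.516 CPM in WT. The KO day 5 libraries had 6.24, 8.72, 5.79 and 6.34 CPM, against 0.416, 1.00, 0.8293 and 0.818 CPM in WT. The KO day 10 libraries had 6.23, 4.78, 5.65 and 5.52 CPM, against 0.616, 0.913, 1.39 and 0.423 CPM in WT. Every KO library lay above every WT library of all days. The difference was 2.93 ± 0.32 on day 0, 3.13 ± 0.31 on day 5 and 2.73 ± 0.30 on day 10, that is 7.60-fold, 8.75-fold and 6.64-fold higher.

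Gm15446 had counts in every KO library and none in any of the 12 WT libraries. On day 0 the KO libraries had 1.55, 2.27, 1.14 and 1.01 CPM, from 18, 19, 15 and 13 counts. On day 5 they had 1.22, 1.16, 0.709 and 0.679 CPM, from 21, 21, 12 and 12 counts. On day 10 they had 1.23, 2.12, 1.67 and 1.99 CPM, from 21, 36, 31 and 35 counts. The WT libraries were at 0, so only a bound can be given. Against a floor of 3 counts over the WT group, KO was at least 21.7-fold higher on day 0, at least 22.1-fold higher on day 5 and at least 44.6-fold higher on day 10. The bounds cover counting error only and follow depth, so they give no order of the days. In the deposited FPKM, which scales fragments to depth and transcript length, the gene was not at 0 in WT: on day 0 it had 0.988, 1.05, 1.01 and 0.968 FPKM in KO and 0.414, 0.323, 0.400 and 0.147 FPKM in WT. KO stayed above WT within each day on that scale, but over all days the lowest KO library (0.853 FPKM) lay below the highest WT library (0.868 FPKM). Of the 50-base stretches of its GENCODE transcripts, 32.3% also occur in another gene, nearly all in Zfp932 (31.5%), the next tested gene on the chromosome, which encodes a zinc finger protein. Zfp932 itself differed by 0.43, 0.12 and 0.20 on days 0, 5 and 10, none past the threshold. The count of Gm15446 is uncertain to that extent.

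**Figure D2:**
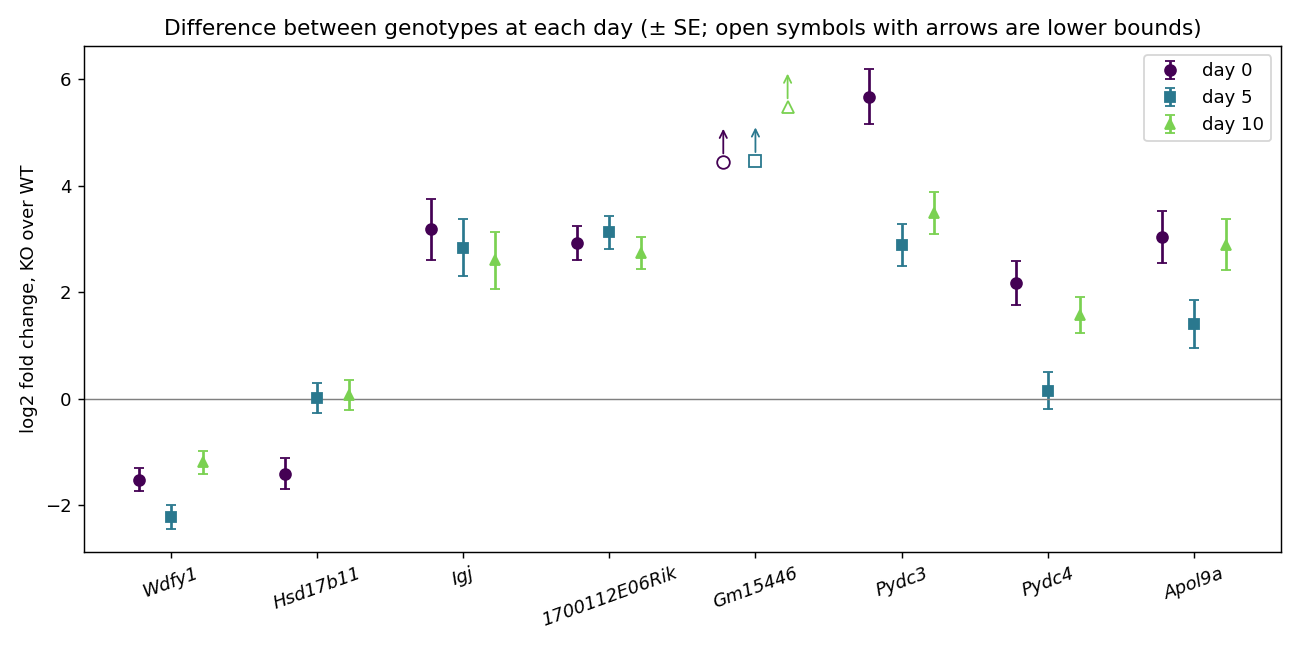
Log2 fold change of KO over WT on day 0, day 5 and day 10 for each gene, with bars of 1 SE from the fit over all 24 libraries; open symbols with arrows are lower bounds against 3 counts. 1700112E06Rik lies between 2.73 and 3.13 on the 3 days, while Hsd17b11 is at -1.41 on day 0 and at 0.01 and 0.07 after it.

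Pydc3 was higher in KO kidneys on every day. It and Pydc4 belong to the PYHIN family, a cluster of interferon-induced genes on chromosome 1 that includes cytosolic DNA sensors. On day 0 the KO libraries had 7.64, 4.66, 5.10 and 6.31 CPM, against 0, 0.340, 0 and 0.0859 CPM in WT, where the counts were 0, 4, 0 and 1. On day 5 the KO libraries had 5.13, 3.75, 3.25 and 3.96 CPM, against 0.594, 0.649, 0.346 and 0.546 CPM in WT. On day 10 the KO libraries had 6.47, 5.61, 7.64 and 10.5 CPM, against 0.616, 0.355, 1.09 and 0.635 CPM in WT. No KO library of any day overlapped a WT library. The difference was 5.68 ± 0.52 on day 0, 2.89 ± 0.39 on day 5 and 3.49 ± 0.39 on day 10, that is 51.2-fold, 7.39-fold and 11.2-fold higher. The 3 KO groups, day 10, day 0 and day 5 from high to low, each overlapped the next, WT day 10 and WT day 5 overlapped below them, and WT day 0 lay lowest, without overlap. The day 0 value rests on 5 counts in WT.

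Pydc4 had a gap between genotypes on days 0 and 10 and none on day 5. The KO day 0 libraries had 2.49, 1.91, 1.45 and 1.71 CPM, against 0.432, 0.510, 0.449 and 0.258 CPM in WT. The KO day 5 libraries had 1.57, 2.10, 1.59 and 1.70 CPM, against 2.08, 1.42, 1.04 and 1.73 CPM in WT, and the groups overlapped. The KO day 10 libraries had 3.47, 3.07, 4.68 and 6.66 CPM, against 1.61, 0.913, 2.78 and 0.741 CPM in WT. The highest of those WT values belongs to replicate 3, 1 of the libraries that stood apart by neutrophil genes. The difference was 2.17 ± 0.42 on day 0, 0.15 ± 0.34 on day 5 and 1.57 ± 0.34 on day 10, and 1.90 on day 10 without WT day 10 replicates 2 and 3. KO day 10 lay highest and WT day 0 lowest, both apart from the rest, and the other 4 groups overlapped in turn. Pydc3 and Pydc4 share sequence, with 18.1% of the 50-base stretches of Pydc3 also in Pydc4 and 13.6% of those of Pydc4 also in Pydc3, so reads could have been split between them.

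Apol9a, an interferon-induced apolipoprotein L gene of mouse, was higher in KO on every day, by the least on day 5. The KO day 0 libraries had 5.75, 4.42, 4.49 and 5.53 CPM, against 0.346, 0.425, 1.08 and 0.602 CPM in WT. The KO day 5 libraries had 3.73, 2.26, 2.60 and 1.53 CPM, against 1.31, 0.413, 1.24 and 0.864 CPM in WT. The KO day 10 libraries had 4.00, 2.18, 4.19 and 4.33 CPM, against 0.427, 0.152, 1.21 and 0.212 CPM in WT. The groups did not overlap on any day. The difference was 3.04 ± 0.49 on day 0, 1.40 ± 0.45 on day 5 and 2.90 ± 0.48 on day 10, that is 8.20-fold, 2.64-fold and 7.44-fold higher, and 3.47 on day 10 without WT day 10 replicates 2 and 3. KO day 0 lay highest, apart from KO day 10 and KO day 5, which overlapped, and the 3 WT groups overlapped each other. Of its 50-base stretches, 16.5% also occur in its neighbour Apol9b. Apol9b was higher in KO on day 0, at 5.85 CPM and 1.06 CPM in WT (2.46 ± 0.52, adjusted p = 0.00772), and differed by 0.91 on day 5 (adjusted p = 0.395) and 1.78 on day 10 (adjusted p = 0.0734). It was the 1 gene of 4 other apolipoprotein L genes tested to pass on day 0, where 3.65% of all genes were higher. None of the 4 passed on days 5 and 10 in edgeR's quasi-likelihood test, where 0.0663% and 0.139% of all genes were higher. At an unadjusted p under 0.05 there was 1 on each of these days, and with DESeq2 there were 0 and 1.

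The wider interferon response was read beside these genes. On day 0, 29 of 32 interferon response genes were higher in KO, against 3.65% of all genes, with a median difference of 1.86. Oasl1, a restrainer of Irf7 translation in mouse, had 14.6 CPM in KO and 2.19 CPM in WT (2.73 ± 0.35, adjusted p = 0.000118), and Irf7, the transcription factor that amplifies interferon output, 90.4 and 17.5 CPM (2.37, adjusted p = 0.000953). Usp18, a brake on interferon receptor signalling, had 16.4 CPM in KO and 4.04 CPM in WT (2.03, adjusted p = 0.000484). On day 5, 0 of 32 passed in edgeR's quasi-likelihood test, with a median of 0.00 (0.0663% of all genes were higher and 0.0796% lower). At an unadjusted p under 0.05, 2 of the list were higher, and 0 with DESeq2. On day 10, 0 of 32 passed in the same test, with a median of 0.63 (0.139% of all genes were higher). At an unadjusted p under 0.05, 15 of the list were higher on day 10, and 5 with DESeq2. Without WT day 10 replicates 2 and 3, of which replicate 3 had a summed level of 3502 CPM, 15 of 32 were higher in KO on day 10. Without the library labelled KO day 0 replicate 4, 28 of 32 were higher on day 0.

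The summed level of the 32 genes was 1046 to 1484 CPM in KO and 332 to 473 CPM in WT on day 0, without overlap, 1245 to 1736 and 1094 to 1437 CPM on day 5, and 2012 to 3106 and 947 to 3502 CPM on day 10. Among 8 other PYHIN genes tested, 7 were higher in KO on day 0 (3.65% of all genes were), with a median difference of 1.90. Pyhin1 differed by 2.60 ± 0.41 (adjusted p = 0.000899) and Ifi204, a DNA sensor of mouse, by 2.05 ± 0.40 (adjusted p = 0.00387). On days 5 and 10 the medians were -0.11 and -0.12, and none of the 8 passed (edgeR's quasi-likelihood test). At an unadjusted p under 0.05 there were 0, and with DESeq2 0. Of all genes, 0.0663% were higher and 0.0796% lower on day 5, and 0.139% and 1.27% on day 10. Pydc3 stood at 2.89, Apol9a at 1.40 and Pydc4 at 0.15 on day 5, a day on which both lists lay near 0. The 4 other apolipoprotein L genes tested had a median of 1.27 on that day, with 0 past the threshold. Whether Pydc3, Pydc4 and Apol9a differ from the lists was not tested, since they were chosen on these counts.

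**Figure D3:**
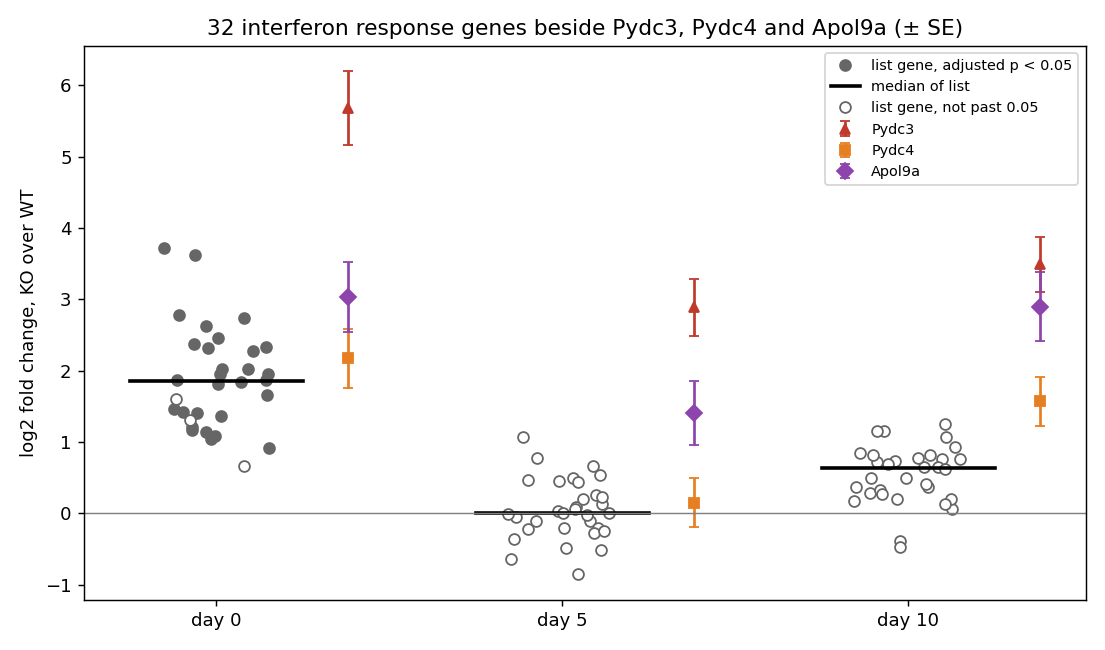
Log2 fold change of KO over WT on day 0, day 5 and day 10 for 32 interferon response genes (grey points, filled where the adjusted p is under 0.05, with the median as a line) and for Pydc3, Pydc4 and Apol9a (± SE). The list's median is 1.86, 0.00 and 0.63 on the 3 days. Pydc3 lies at 5.68, 2.89 and 3.49, and Pydc4 at 2.17, 0.15 and 1.57.

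Markers of T cells, macrophages and dendritic cells also moved between genotypes on day 0. On that day 3.65% of all genes were higher in KO. Of 13 T cell genes 11 were higher (6 without the library labelled KO day 0 replicate 4). The summed level of the 14 counted was 29.6 to 54.3 CPM in KO and 5.97 to 11.3 CPM in WT. Of 13 macrophage genes 8 were higher, with sums of 482 to 632 CPM in KO and 258 to 341 CPM in WT, and of 12 dendritic cell genes 6, with sums of 113 to 161 and 57.4 to 73.9 CPM. No gene of these lists was at 0 in a whole group. Of 6 neutrophil genes tested, 0 passed on day 0 (edgeR's quasi-likelihood test). There were 0 at an unadjusted p under 0.05 and 0 with DESeq2. On day 5, no gene of any of these lists passed, where 0.0663% of all genes were higher and 0.0796% lower. On day 10, 2 T cell genes were higher in KO (0.139% of all genes), and 3 macrophage and 6 neutrophil genes lower (1.27%). With the replicate block only 4 neutrophil genes passed. The part of these cells in the day 0 differences of Pydc3, Pydc4, Apol9a and Igj was not tested.

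The change of each gene with obstruction within a genotype was not itself the measure that chose the genes, but it is not free of the choice. Each comparison reuses libraries whose gap between genotypes chose them. A low or high WT level on day 0 favours a rise or a fall in WT, and the adjusted p-values below do not allow for this. The choice also named these genes as not following obstruction, so a gene short of the threshold is read as nothing. On day 5 against day 0, 0 of the 8 genes were higher in KO (22.4% of all genes were; 0 at an unadjusted p under 0.05 and 0 with DESeq2) and 2 lower (17%). In WT, 2 of 7 were higher (31%) and 1 lower (25.6%), Gm15446 having no count there. On day 10 against day 0, 1 of 8 was higher in KO (28.3%) and 1 lower (26%), and in WT 2 of 7 were higher (37.8%) and 2 lower (30.3%).

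Pydc3 and Pydc4 rose with obstruction in WT kidneys. Pydc3 reached 0.534 ± 0.132 CPM on day 5 and 0.674 ± 0.305 CPM on day 10 in WT, against 0.107 ± 0.161 CPM on day 0 (SD, n = 4 each), a rise of 2.23 ± 0.60 (adjusted p = 0.00382) and 2.54 ± 0.59 (adjusted p = 0.000693). In KO its changes were -0.56 (adjusted p = 0.197) and 0.35 (adjusted p = 0.396), the last of which passed on the log2 FPKM scales (0.77 and 1.09 for pseudocounts of 1 and 0.1). Pydc4 reached 1.57 ± 0.445 CPM on day 5 and 1.51 ± 0.927 CPM on day 10 in WT, against 0.412 ± 0.108 CPM on day 0, a rise of 1.91 ± 0.41 (adjusted p = 0.000628) and 1.85 ± 0.41 (adjusted p = 0.000506). In KO it changed by -0.11 on day 5 (adjusted p = 0.819) and rose by 1.24 ± 0.34 on day 10 (adjusted p = 0.00465). Of the 32 interferon response genes, 29 rose on day 5 and 31 on day 10 in WT, where 31% and 37.8% of all genes did. In KO, 3 and 20 rose, where 22.4% and 28.3% of all genes did. The day 5 and day 10 comparisons of a genotype share its day 0 libraries.

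Hsd17b11 fell in both genotypes on both days, and Wdfy1 in KO on day 5 and in WT on day 10. Hsd17b11 fell to 170.1 ± 49.99 CPM on day 5 in WT, against 819 ± 97.2 CPM on day 0 (-2.27 ± 0.29, adjusted p = 3.09e-06), and to 131 ± 22.9 CPM on day 10 (-2.64 ± 0.30, adjusted p = 2.33e-07). In KO it fell to 171 ± 37.99 CPM on day 5, against 308 ± 149 CPM on day 0 (-0.85 ± 0.28, adjusted p = 0.0218), and to 138 ± 18.6 CPM on day 10 (-1.16 ± 0.28, adjusted p = 0.00185). The KO day 5 call was lost without KO day 0 replicate 3, without KO day 5 replicate 1 or 3, and with only the groups compared, and without the library labelled KO day 0 replicate 4 the change was -1.12 (adjusted p = 0.00066). Wdfy1 fell in KO on day 5 by 0.97 ± 0.22 (adjusted p = 0.00157) and in WT on day 10 by 0.65 ± 0.21 (adjusted p = 0.0104), the last call lost without WT day 10 replicates 2 and 3 (-0.57, adjusted p = 0.0798). In WT on day 5 its change was -0.27 (adjusted p = 0.277), with all 4 libraries below those of day 0, and it passed with only the groups compared (-0.25, adjusted p = 0.0348). In KO, the fall of Wdfy1 on day 5 and those of Hsd17b11 on both days, and in WT the fall of Wdfy1 on day 10, did not pass on any of the 3 log2 FPKM scales, where all genes sit higher after obstruction (by 0.27 to 0.66 at the median).

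The remaining genes did not pass in either genotype on counts in edgeR's quasi-likelihood test, though some did under other settings. 1700112E06Rik changed by at most 0.18 in size (adjusted p = 0.588 to 0.982), and Igj by 0.58 to 1.23 (adjusted p = 0.0559 to 0.375). The largest of the Igj changes, in WT on day 10, passed with DESeq2 (1.19, adjusted p = 0.0325), with the stricter filter (1.27, adjusted p = 0.0485) and on both filtered log2 FPKM scales. It also passed without WT day 10 replicate 2 (1.53) or 3 (1.42) or both (1.84, adjusted p = 0.0127), without KO day 0 replicate 4 and without KO day 5 replicate 1, 3 or 4. Without WT day 10 replicate 1 it was 0.69 (adjusted p = 0.286). In WT on day 5 the Igj change passed with only the groups compared (0.94) and on log2(FPKM + 0.1) (1.48). On log2 FPKM scales, with the shift of all genes given above, 1700112E06Rik passed in KO on day 5 (0.58 and 0.68), as did Igj (1.35 and 1.46) and Gm15446 (0.44 and 0.72) in KO on day 10, for pseudocounts of 1 and 0.1. On 1 of these scales each, Igj passed in KO on day 5 (1.05) and Apol9a in WT on day 5 (0.98), and 1700112E06Rik passed in KO on day 10 as a rise of 0.39 with a pseudocount of 1. Gm15446 changed in KO by -0.63 on day 5 (adjusted p = 0.173) and 0.26 on day 10 (adjusted p = 0.551). Apol9a was at 2.53 ± 0.917 CPM in KO on day 5, against 5.05 ± 0.693 CPM on day 0 (adjusted p = 0.0663), a difference that passed with DESeq2, with only the groups compared, with the replicate block, without KO day 5 replicate 1 and without WT day 10 replicate 2, 3 or both.

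**Figure D4:**
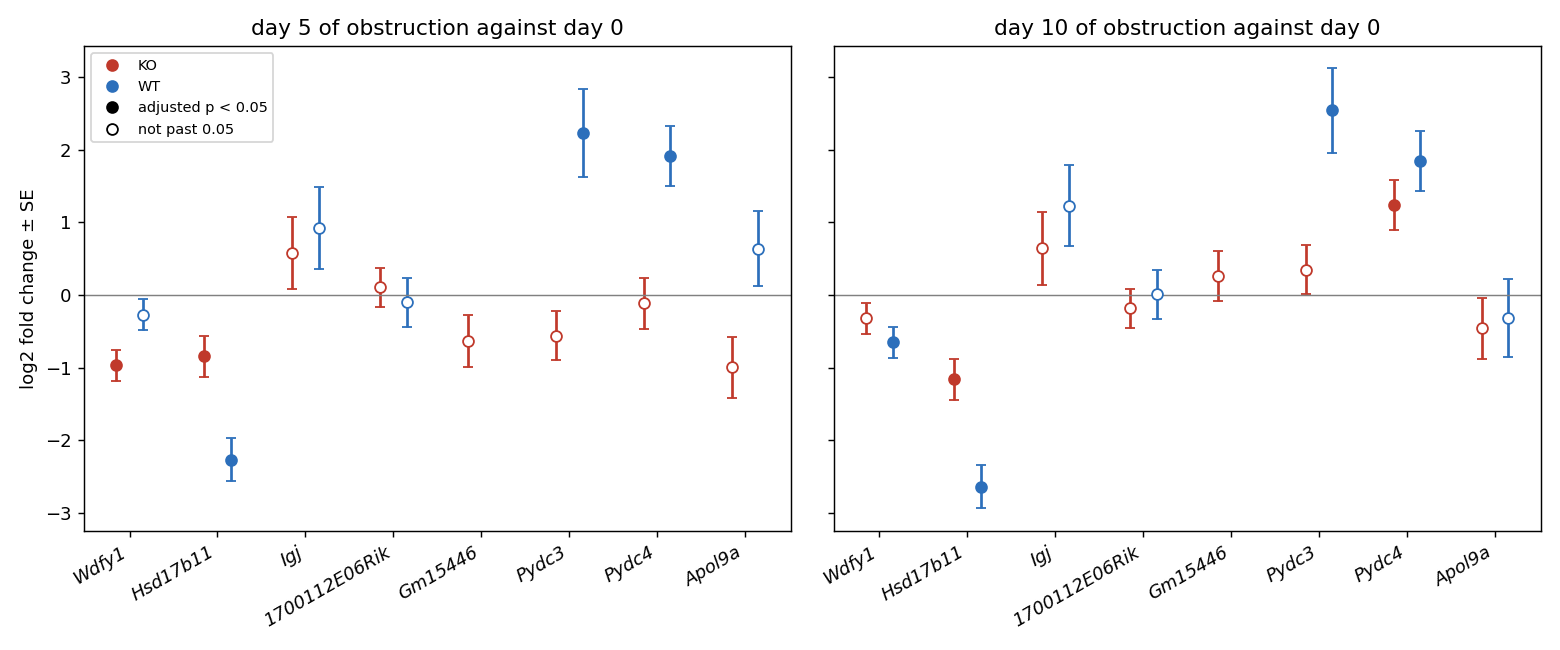
Log2 fold change of day 5 (left) and day 10 (right) of obstruction over day 0 within KO (red) and WT (blue), with bars of 1 SE; filled points have an adjusted p under 0.05. Pydc3 and Pydc4 are filled in WT on both days, at 2.23 and 1.91 on day 5, and Hsd17b11 is filled in both genotypes.

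Per length of transcript, the genes spanned a wide range of levels. On day 0, Hsd17b11 averaged 109 FPKM in KO and 259.7 FPKM in WT, Wdfy1 6.25 and 15.5 FPKM, and Igj 9.62 and 0.928 FPKM. 1700112E06Rik averaged 4.29 FPKM in KO and 0.515 FPKM in WT, Apol9a 3.74 and 0.499 FPKM, and Pydc3 1.42 and 0.0862 FPKM. Gm15446 averaged 1.01 FPKM in KO and 0.321 FPKM in WT, and Pydc4 0.531 and 0.0949 FPKM. Hsd17b11 and Wdfy1, the genes lower in KO on day 0, were thus the most abundant of the set in WT, and the other genes were all under 1 FPKM there.

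The 3 genes whose log2 CPM followed each member most closely over the 24 libraries are given as a description, since libraries share groups, depth and genotype. 1700112E06Rik followed Gm15446 (r = 0.95), Serpina1e (0.92), a protease inhibitor gene, and Pydc3 (0.90), and Gm15446 followed 1700112E06Rik (0.95), Pydc3 (0.92) and Serpina1e (0.91). Pydc3 followed Gm15446 (0.92), the T cell gene Cd8b1 (0.91) and the myeloid receptor gene Cd300e (0.90). Pydc4 followed interferon response genes, Irf7 (0.93), Dhx58 (0.92) and Ddx60 (0.91), and Apol9a followed Cmpk2 (0.91), Apol9b (0.90) and Gm15446 (0.87). Igj followed Serpina1e (0.87), Gm15446 (0.86) and Meiob (0.84), Wdfy1 followed Cnbd2 (0.84), Serpina1a (0.80) and Cdk8 (0.78), and Hsd17b11 followed Pigk, Kif20b and Tspan13 (0.94 each). Members were chosen for their genotype difference, so a high r between them follows from the choice. On deviations from group means, r with Gm15446, which varies only in KO, was 0.57 for Wdfy1, against -0.81 over the 24 libraries. Within groups that r was 0.17 for Pydc4, 0.09 for Hsd17b11, 0.06 for 1700112E06Rik, 0.05 for Pydc3, 0.02 for Apol9a and 0.00 for Igj. Between 1700112E06Rik and Pydc3 it was 0.34. Of the 28 pairs of members, 3 were over 0.5: Wdfy1 and Gm15446, Pydc4 and Apol9a (0.55), and Pydc3 and Pydc4 (0.52).

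The genes lie on chromosomes 1 (Wdfy1, Pydc3 and Pydc4), 5 (Igj, Gm15446 and Hsd17b11), 14 (1700112E06Rik) and 15 (Apol9a). The 3 tested genes on each side of a member, 43 distinct genes outside the set, were read beside it. On day 0, 5 of the 43 were higher in KO (3.65% of all genes were) and none lower: Pyhin1, AI607873, Ifi204 and Mndal beside Pydc3 and Pydc4, and Apol9b beside Apol9a. All 5 belong to the PYHIN or apolipoprotein L lists described above, and the part of their place on the chromosome was not tested. On days 5 and 10, 0 of the 43 passed (edgeR's quasi-likelihood test), with 2 higher and 5 lower on day 5 and 2 higher and 2 lower on day 10 at an unadjusted p under 0.05. With DESeq2, 1 was lower on day 5, and 1 was higher and 1 lower on day 10. Of all genes, 0.0663% were higher and 0.0796% lower on day 5, and 0.139% and 1.27% on day 10. No neighbour of Wdfy1, Igj, 1700112E06Rik, Gm15446 or Hsd17b11 passed on any day. The mean difference of the 43 over the 3 days ran from -0.69 to 1.72, against -1.65 for Wdfy1, 2.87 for Igj, 2.93 for 1700112E06Rik, 4.02 for Pydc3, 2.44 for Apol9a and a bound of 4.80 for Gm15446. Hsd17b11, at -0.44, and Pydc4, at 1.30, lay inside the neighbours' range. The members were chosen for this difference and the neighbours were not, so a place outside that range follows from the choice. Nothing is read from it.

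**Figure D5:**
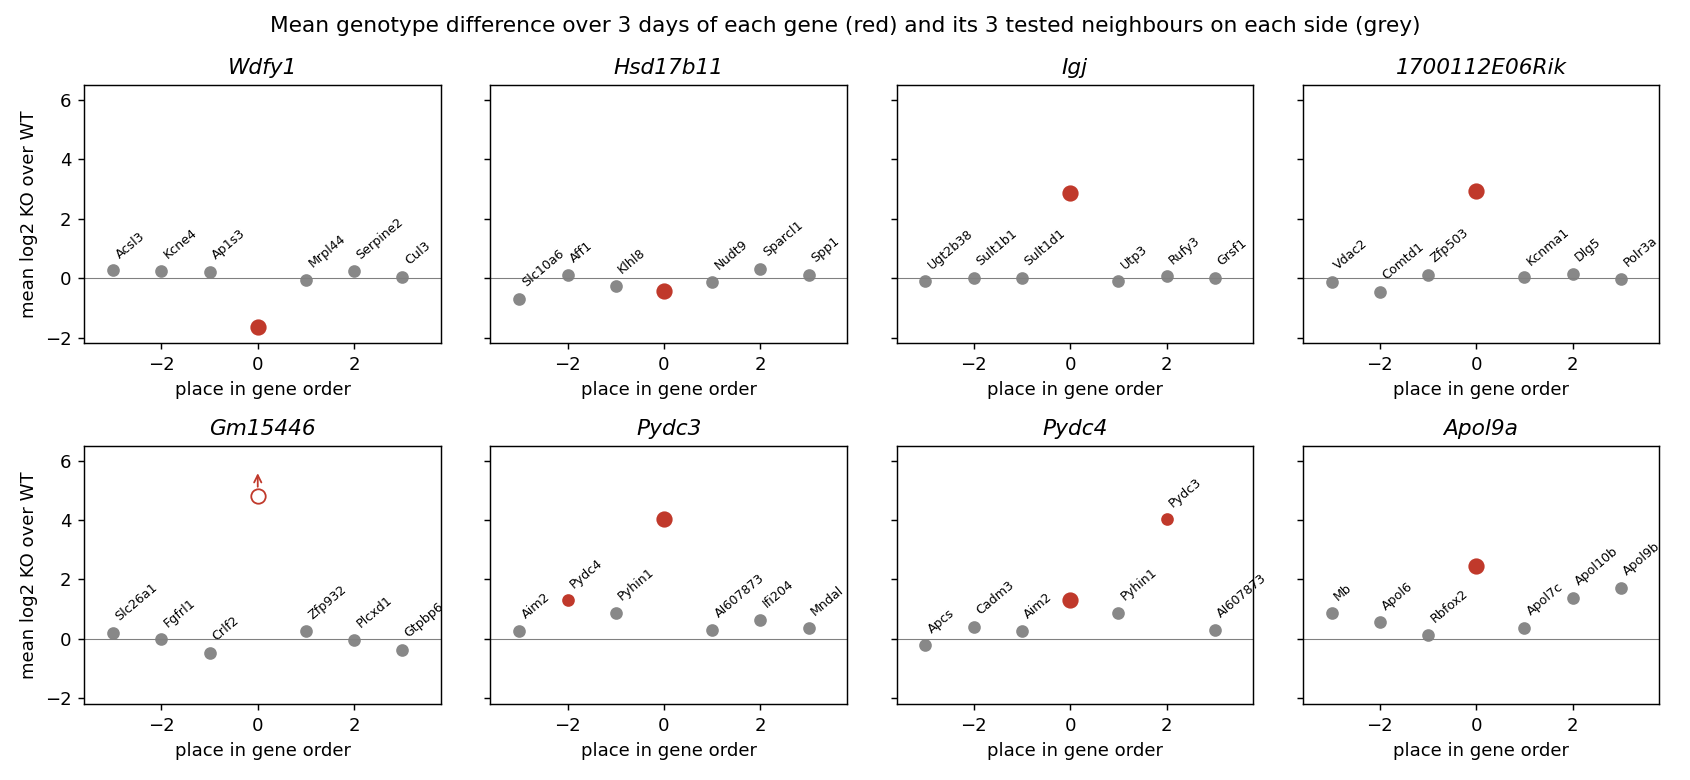
Mean over 3 days of the log2 difference of KO to WT for each gene (red, at place 0) and the 3 tested genes on each side (grey, other members red) in chromosome order; the open symbol with an arrow is a lower bound. Wdfy1 lies at -1.65 and 1700112E06Rik at 2.93, and their neighbours lie near 0. The genes at place 0 were chosen for this difference.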

How the data were processed

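RNA of mouse kidney was measured in 24 libraries, 4 in each of 6 groups, and genotype, day and replicate number were taken from the labels. The authors deposited raw counts per gene symbol, as whole numbers for 23955 symbols, and FPKM values for 23953 symbols, with 23894 in both. Per the submitters' processing notes, bcl2fastq 2.16, STAR 2.5, Cufflinks and the mm9 genome were used. How reads were counted, on which annotation and with or without strand, is not given in the sources used here, so overlapping, antisense and near-identical genes are uncertain. FPKM in the authors' deposited file scales fragments to transcript length and library depth, by its name. Total counts ran from 9800888 to 22542866 per library. Replicate libraries differed from each other by more than sampling noise.

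Counts were filtered with filterByExpr of edgeR 4.0.16 (R 4.3.3; minimum count 10, minimum total 15), which left 15080 genes, scaled by TMM and fitted with 1 mean per group in edgeR's quasi-likelihood test (robust, 18 residual degrees of freedom). Adjusted p-values are Benjamini-Hochberg values over all genes tested, per comparison, at 0.05. SEs are the absolute log2 fold change over the root of the F statistic. CPM is counts over the library total times its TMM factor, and log2 CPM uses a prior count of 2. Levels in text are means over 4 libraries unless each library is given. A group with no counts was set to 3 counts over the group, as a lower bound that covers counting error only. The scripts were tested on simulated counts.

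The 8 genes and all gene lists were chosen with earlier results of these data known. Named besides the 8 genes were the 3 genes most like each over the libraries and the 3 tested neighbours on each side. Up to 4 genes of a list with the lowest adjusted p, and Pld4, were also named. For the B cell and plasma cell list, all 5 genes called on day 0 were named. Wdfy3, Ticam1, Mzb1, Derl3, Sdc1, Ms4a1, Tnfrsf17, Pigr and Kap were named after their values were seen. So were Xist, Ddx3y, Eif2s3y, Kdm5d and Uty, and the genes under the other observations. Alternatives tried were RLE scaling, testing without the filter, a stricter filter (CPM 1 or more in 8 or more libraries), DESeq2 1.42.0, limma 3.58.1 on log2(FPKM + 1), filtered at 1 FPKM in 4 libraries or unfiltered, and on log2(FPKM + 0.1), fits to the compared groups alone, a replicate block, each library left out, and WT day 10 replicates 2 and 3 left out together. What replicate numbers share is not in the labels. For KO against WT on day 10, deviations from the group means correlated at 0.141 to 0.306 in the 4 pairs of equal number, all over 0.1, so the block is given there. In the other comparisons not every pair did. Promoter windows are RefSeq's for GRCm38.p6, and the stretches shared between genes come from GENCODE transcripts.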

Additional observations from a re-analysis of the deposited data

Results flagged for a closer look

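In 57 groups of 4 libraries examined for these genes, Xist and Ddx3y, 4 had 1 library far from the others of its group by Dixon's criterion. Chance gives about 1 in 20 groups, so the flags of Wdfy1 and Apol9a below are read as nothing. That share does not apply to the flags of Xist and Ddx3y. They come from the same library, and both genes were named after their values were seen. KO day 5 replicate 1 had 40.8 CPM of Wdfy1, against 16.9 to 20.2 CPM in the other libraries of its group. KO day 10 replicate 2 had 2.18 CPM of Apol9a, against 4.00 to 4.33 CPM in the others. The library labelled KO day 0 replicate 4 had 879 CPM of Xist and 0.390 CPM of Ddx3y. It was also the lowest of KO day 0 in Wdfy1 (29.9 CPM) and Hsd17b11 (117 CPM) and the highest in Igj (60.3 CPM). Without it, the day 0 differences of KO to WT were -1.36 for Wdfy1, -1.14 for Hsd17b11, 2.73 for Igj, 2.94 for 1700112E06Rik, 5.65 for Pydc3, 2.22 for Pydc4 and 2.99 for Apol9a, and Gm15446 was at least 24.1-fold higher.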

How the results depend on the processing

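The genes were chosen on the difference of KO to WT, so its direction here is a description. The mean of that difference over the 3 days kept its direction for all 8 genes under every alternative where it was computed. It was not computed in fits to the compared groups alone. On log2(FPKM + 1), with and without the filter, it was 1.18 for Pydc3, 0.47 for Pydc4, 2.03 for 1700112E06Rik, 0.58 for Gm15446 and 1.43 for Apol9a, all smaller than on counts. On log2(FPKM + 0.1) it was 2.47 for Pydc3 and 1.20 for Gm15446; Gm15446 is not at 0 in WT in the FPKM file. Without WT day 10 replicates 2 and 3, the bound of Gm15446 was 4.48. Leaving out 1 library gave 3.89 to 4.57 for Pydc3, the last without WT day 0 replicate 2, where 1 WT count was left on day 0 and no change with time was computed.

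Counts of genes called over the whole table moved more; the causes were not tested. KO against WT called 630 genes on day 0, and 975 with DESeq2, 359 on log2(FPKM + 1), 301 on it without a filter, 1507 with only these groups, 1274 without WT day 10 replicates 2 and 3, and 296 to 852 with 1 library left out. On day 5 it called 22, and 87, 49 and 58 with the same first 3 settings, 41 on log2(FPKM + 0.1), 116 without both libraries and 9 to 1935 with 1 left out. On day 10 it called 212, and 473, 40 and 58 with those settings, 25 on log2(FPKM + 0.1), 0 with only these groups (edgeR; 1043 at an unadjusted p under 0.05), 19 with the replicate block (8 higher and 11 lower, against 21 and 191), 69 without both libraries (61 higher and 8 lower) and 23 to 2045 with 1 left out. Day 5 against day 0 in KO called 5951, and 9216 on log2(FPKM + 1) with no filter.

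Among 1015 repeats of the changes with obstruction, 923 kept their direction and side of the threshold, 38 changed sign but fell short of it in both fits, 17 lost the call, 35 newly passed and 2 reversed. The change of 1700112E06Rik in KO on day 10 was 0.39 on log2(FPKM + 1), with and without the filter, against -0.18 on counts. The replicate block changed the Apol9a change in KO on day 5, which then passed, and the Pld4 difference on day 10 (adjusted p = 0.0912, against 0.0331).

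Gm15446, Pydc4 and WT Pydc3 rest on few counts, and 4 libraries a group leave modest changes undetected. Strain, allele and pairing of animals are not given.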

Other observations

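Besides 6 of the 8 genes, 13 other genes had KO and WT libraries apart on each of the 3 days. They were picked by that pattern, so their values are a description. Among those higher in KO were Cd74, the invariant chain of MHC class II, with differences of 2.72, 1.19 and 0.90 on days 0, 5 and 10, the class II gene H2-Aa with 1.99, 0.62 and 0.79, and Xcr1, a chemokine receptor of cross-presenting dendritic cells, with 1.46, 0.48 and 1.42. Nnt, which encodes the mitochondrial nicotinamide nucleotide transhydrogenase, was the 1 gene besides Wdfy1 that was lower on each day, by near equal amounts (-1.16, -1.06 and -1.05). Serpina1e, Prkcq, a protein kinase C of T cells, and Adss, an enzyme of AMP synthesis, kept all 12 KO libraries above all 12 WT libraries. The mean differences of Prkcq and Adss were small, at 0.68 and 0.42.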
